A study of Equus caballus with 8 samples.

Results

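This report describes 39 genes of the stromal fibroblast and its noncollagen extracellular matrix in the endometrium of the mare: elastic fibre and microfibril genes, crosslinking enzymes, small leucine-rich proteoglycans, versican and the hyaluronan synthases, adhesive glycoproteins, and fibroblast markers. They were chosen by name, with earlier results of these data known, and collagens were left out. Of the 39, 38 matched an NCBI Gene ID among the 24942 in the count table and had at least 10 reads in total. HAS1, a hyaluronan synthase, matched none and was not analysed here. POSTN (periostin) had 1 to 19 reads per library and fell below the low-count filter, so 37 genes were tested.

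RNA was sequenced from endometrial biopsies of 4 Bavarian Warmblood mares, whose ages the labels do not give. Each was sampled when pregnant and when cyclic (not pregnant), both at Day 12 and in random order, so the 8 libraries form 4 pairs. Human chorionic gonadotropin (1500 IU) had been given to induce ovulation in both groups, and biopsies were taken through the cervix after the uterus had been flushed. Pregnancy was shown by ultrasound detection of an embryonic vesicle before the flush. The labels say that all mares were inseminated with semen of a single stallion, without saying whether this holds for the cycles that gave the cyclic biopsies.

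The endometrium consists of a luminal and glandular epithelium above a stroma of fibroblasts, vessels and leukocytes. Stromal fibroblasts secrete the matrix that holds the tissue. Elastic fibres have an elastin core laid on fibrillin microfibrils with the help of fibulins and microfibril-associated proteins, and lysyl oxidases crosslink elastin. Small leucine-rich proteoglycans bind collagen fibrils and set their diameter, while versican binds hyaluronan to form a hydrated, loose matrix. In several mammals the stromal matrix is remodelled in early pregnancy, and in the horse the conceptus stays unattached and mobile in the uterine lumen at this time.

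Total counts ran from 15.5 to 16.7 M reads in 7 libraries and were 9.81 M in the pregnant library of mare 1. Among the pregnant libraries that of mare 2 stood apart. Its chi-square values, divided by their degrees of freedom, were 88.7 to 146 against the other 3, which lay 24.6 to 33.8 from each other. Pairs of cyclic libraries lay 34.7 to 103 apart. Values without mare 2 are given where they change a call. Markers of epithelium, endothelium, smooth muscle and leukocytes were all detected, as a whole biopsy would give, with EPCAM, an epithelial adhesion molecule, at 538 ± 21.9 CPM (SD, n = 4) in the cycle. Levels are given in CPM, the reads of a gene per 1000000 library reads, with libraries put on one scale by edgeR's TMM factors. Since the biopsy is a mixture, more fibroblasts and more RNA per fibroblast cannot be told apart.

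Pregnant were compared with cyclic libraries to ask which of these transcripts differ in the endometrium when a conceptus is present. Most that differed were higher in pregnancy: 18 of 37 rose and 1 fell. The largest rises were those of TNC (tenascin C), MGP (matrix Gla protein), VIT (vitrin), MFAP4 and ELN (elastin), and the single fall was that of VCAN (versican). A gene is said to have risen or fallen when its adjusted p was below 0.05 in edgeR's quasi-likelihood test with the mare as block, adjusted by Benjamini-Hochberg over all 15342 genes tested. Among all genes tested, 16.7% were called in either direction, 8.53% higher and 8.19% lower in pregnancy. The median log2 fold change was 0.40 over the 37 genes and 0.00 over all genes tested. With library totals in place of TMM the calls over all genes were 1416 higher and 864 lower, against 1309 and 1256 with TMM, and of the 37 genes 18 rose and 1 fell in that fit too, with THY1 lost and THBS2 gained.

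All 18 risers were higher in each of the 4 mares, which a test blocked by mare favours, so this adds no support to the calls. Called or not, 22 of the 37 genes and 2947 of all 15342 were higher in 4 of 4 mares. In 14 of the 18 the pregnant and cyclic libraries did not overlap. Such separation upward was seen in 15 of the 37 genes, against 6.00% of all genes, and separation downward in 1, against 4.73% of all genes. At least 2-fold was reached by 6 risers, while 5 rose less than 1.5-fold. Of the 18 genes not called, 12 had a log2 fold change above 0 and 6 below. Without the mare block 7 rose and 1 fell, with THBS2 gained as a riser and 12 of the 19 calls lost. Leaving out mare 1, which holds the shallow library, 14 rose and 1 fell. These are among 14 alternative settings run for each of the 37 genes, including other normalisations, filters and tests and leaving out each mare.

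**Figure D1:**
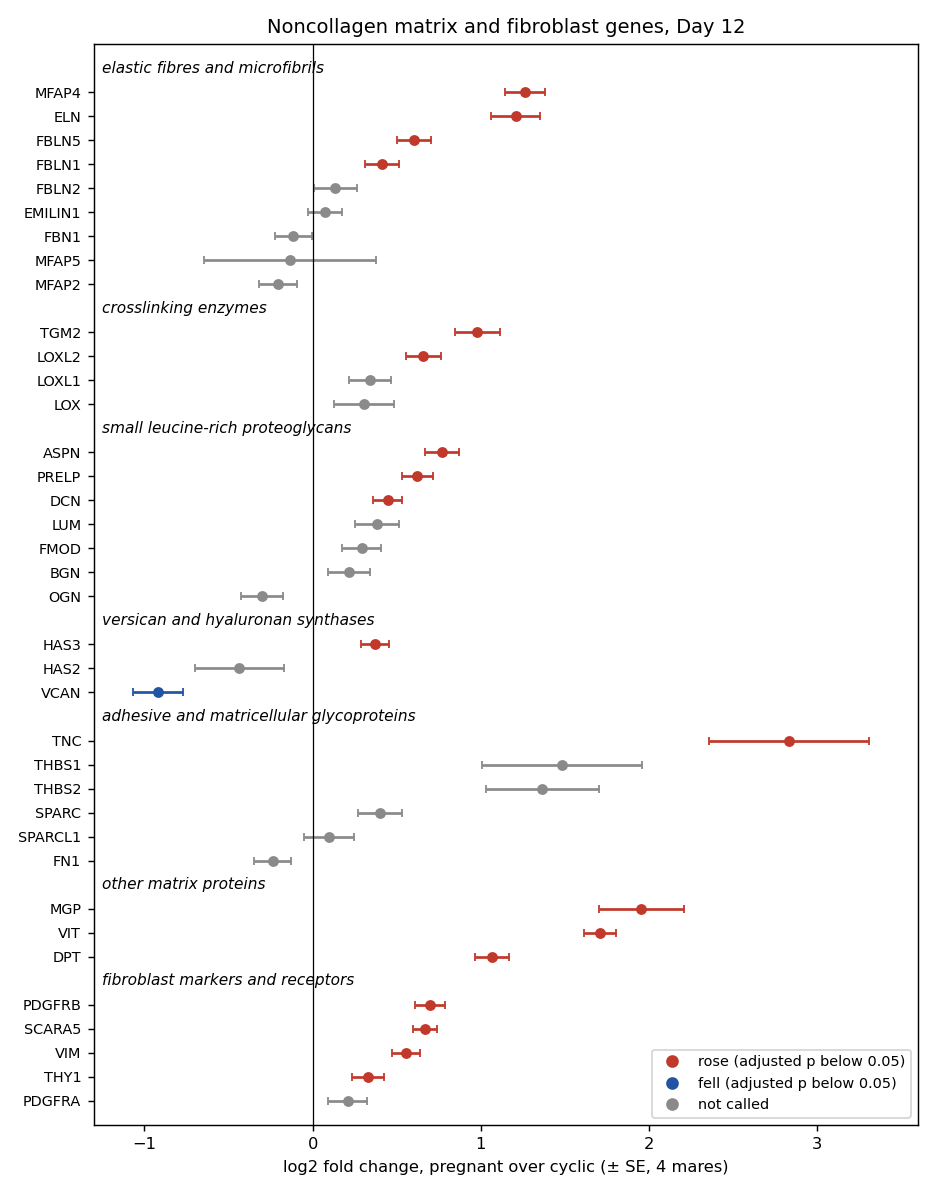
Log2 fold change of pregnant over cyclic endometrium (horizontal axis, points with SE, 4 mares) for the 37 tested genes, grouped by role. Red points rose, the blue point (VCAN) fell and grey points were not called; TNC has the largest value at 2.83 and VCAN the lowest at -0.92.

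Among the 9 elastic fibre and microfibril genes, 4 rose, 0 fell and 5 were not called. ELN (Gene ID 102150882), the core protein of elastic fibres, stood at 15.8, 8.67, 24.3 and 14.8 CPM in the cyclic libraries of mares 1 to 4 and at 37.2, 30.0, 49.0 and 26.5 CPM in the pregnant ones. The pregnant libraries were all above the cyclic ones, and the log2 fold change (± SE) was 1.21 ± 0.15 at an adjusted p of 0.00159. MFAP4 (100073173), a glycoprotein that binds elastin and fibrillin, had 16.5, 17.1, 34.4 and 16.9 CPM when cyclic and 51.6, 45.8, 64.1 and 36.6 CPM when pregnant. Its groups did not overlap either, although mare 3 was high in both states, and the log2 fold change was 1.26 ± 0.12 (adjusted p = 5.48e-04).

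FBLN5 (fibulin 5; 100063331), which tethers elastin to microfibrils and to cells, had 51.6, 58.1, 58.4 and 48.0 CPM when cyclic against 85.0, 69.6, 108 and 69.6 CPM when pregnant, again without overlap (log2 fold change 0.60 ± 0.10, adjusted p = 0.00426). FBLN1 (fibulin 1; 100052767), found in elastic fibres and basement membranes, went from 634, 519, 716 and 584 CPM to 909.9, 812, 928 and 631 CPM. For FBLN1 the groups overlapped, since pregnant mare 4 lay below cyclic mares 1 and 3, and the log2 fold change was 0.41 ± 0.10 (adjusted p = 0.0206). That call was lost in 5 of 14 alternatives, among them each fit without mare 1, 2 or 3 (adjusted p 0.0644 to 0.111). A fit without mare as a block gave adjusted p values of 0.0506 for MFAP4, 0.0758 for ELN, 0.0594 for FBLN5 and 0.163 for FBLN1.

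The microfibril scaffold itself was not called. FBN1 (fibrillin 1), its main subunit, was at 115 ± 23.4 CPM when cyclic and 107 ± 23.6 CPM when pregnant (SD, n = 4; log2 fold change -0.12 ± 0.11, adjusted p = 0.532). MFAP2, which sits on fibrillin microfibrils, was at 32.4 ± 4.40 and 28.1 ± 3.24 CPM (adjusted p = 0.256). MFAP5, its relative, was at 32.4 ± 17.2 and 27.6 ± 8.76 CPM (adjusted p = 0.898), and rested on mare 2, where it went from 56.4 to 17.0 CPM while it was higher in pregnancy in the other 3 mares. Without mare 2 its log2 fold change was 0.36 in place of -0.14 (adjusted p = 0.0714). FBLN2 (fibulin 2) had a log2 fold change of 0.13 ± 0.13 and EMILIN1, an elastin-associated glycoprotein, of 0.07 ± 0.10 (adjusted p = 0.530 and 0.686).

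Of the 4 crosslinking enzymes, 2 rose. TGM2 (transglutaminase 2; 100070046), which joins matrix proteins through glutamine and lysine side chains, had 25.2, 20.1, 28.4 and 21.7 CPM when cyclic and 44.8, 44.5, 74.3 and 31.3 CPM when pregnant. Its groups did not overlap, mare 3 was the highest in both, and the log2 fold change was 0.98 ± 0.13 (adjusted p = 0.00282). LOXL2 (lysyl oxidase-like 2; 100058083), which oxidises lysines of type IV collagen and elastin, went from 11.6, 9.93, 13.3 and 10.9 CPM to 17.8, 15.1, 24.5 and 15.5 CPM, also without overlap (log2 fold change 0.66 ± 0.10, adjusted p = 0.00313). LOXL1, the relative tied to elastin, was at 17.6 ± 2.79 and 22.2 ± 3.44 CPM (adjusted p = 0.101) and lower in pregnancy in mare 2. LOX, the founding lysyl oxidase, was at 6.93 ± 2.62 and 8.44 ± 2.70 CPM (adjusted p = 0.286). Unblocked, the adjusted p values were 0.0594 for TGM2 and 0.0734 for LOXL2. LOXL1 was called without mare 2 (adjusted p = 0.0242).

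Small leucine-rich proteoglycans were called in 3 of 7 cases, all higher in pregnancy. DCN (decorin; 100034120), which coats collagen fibrils and binds TGF beta, had 119, 139, 166 and 132 CPM when cyclic and 198, 175, 201 and 180.3 CPM when pregnant. No cyclic library reached the lowest pregnant one, and the log2 fold change was 0.45 ± 0.09 (adjusted p = 0.00761). ASPN (asporin; 100054817), a close relative with an aspartate-rich end, went from 15.6, 9.80, 14.5 and 9.73 CPM to 22.8, 17.7, 26.9 and 16.8 CPM, without overlap (log2 fold change 0.77 ± 0.10, adjusted p = 0.00150). PRELP (100053463), which binds heparan sulphate and collagen, had 50.4, 40.0, 60.4 and 56.1 CPM against 76.8, 56.4, 116 and 75.7 CPM. The groups of PRELP overlapped, pregnant mare 2 lying below cyclic mare 3, and the log2 fold change was 0.62 ± 0.09 (adjusted p = 0.00229). When mares were not blocked, adjusted p values were 0.0696 for DCN, 0.0884 for ASPN and 0.142 for PRELP.

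The other 4 proteoglycans were not called. LUM (lumican), a collagen fibril organiser, had 28.3, 42.3, 31.6 and 34.3 CPM when cyclic and 53.8, 49.2, 34.2 and 42.0 CPM when pregnant, higher in 4 of 4 mares with overlapping groups (log2 fold change 0.38 ± 0.13, adjusted p = 0.0835). BGN (biglycan), the nearest relative of decorin, was at 196 ± 31.8 and 227 ± 24.2 CPM (adjusted p = 0.278). FMOD (fibromodulin) was at 39.0 ± 4.46 and 47.8 ± 5.85 CPM (adjusted p = 0.129; 0.0284 without mare 2). OGN (osteoglycin, also called mimecan) was the only proteoglycan of the 7 with a log2 fold change below 0, at 36.7 ± 8.20 and 29.6 ± 5.97 CPM (-0.30 ± 0.12, adjusted p = 0.139; 0.0427 without mare 3, with a log2 fold change of -0.44).

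Several of these genes lie next to each other in the RefSeq gene order of the horse assembly TB-T2T. ASPN and OGN are separated by a single protein-coding gene, OMD (osteomodulin). ASPN rose, whereas OGN was not called and OMD was at 4.74 ± 1.89 and 3.66 ± 0.645 CPM (log2 fold change -0.32 ± 0.19, adjusted p = 0.285). LUM and DCN are direct neighbours with similar log2 fold changes of 0.38 and 0.45, as are FMOD and PRELP, with 0.29 and 0.62. Whether the changes of neighbours differ was not tested.

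VCAN (versican; 100065275), the large hyaluronan-binding proteoglycan, was the 1 gene of the 37 that fell. It stood at 96.6, 119, 120.1 and 126 CPM in the cyclic libraries of mares 1 to 4 and at 65.4, 56.8, 44.7 and 80.7 CPM in the pregnant ones. Every pregnant library was below every cyclic one, and VCAN fell by 0.92 ± 0.15 on the log2 scale (adjusted p = 0.00900). Without mare 2 the log2 fold change was -0.88 and the adjusted p 0.0512, the 1 alternative of 14 that lost the call. HAS3 (100066947), a hyaluronan synthase, moved the other way, from 18.5, 18.6, 18.6 and 21.1 CPM to 24.0, 25.5, 24.0 and 25.8 CPM. This was a small change with little spread and no overlap (log2 fold change 0.37 ± 0.08, adjusted p = 0.0157), lost without the mare block, after thinning, and without mare 1 or 2 (adjusted p 0.0653 to 0.0730). HAS2, the synthase best known from fibroblasts, had 1.92 to 4.71 CPM when cyclic and 1.78 to 2.19 CPM when pregnant (adjusted p = 0.303). Mare 2 alone was high in the cycle, and because the library protocol describes no marking of the strand, reads of HAS2 and of any overlapping antisense RNA cannot be told apart.

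Of the 6 adhesive and matricellular glycoproteins tested, 1 rose and 0 fell, a share close to the 16.7% called over all genes. TNC (100049835), an antiadhesive glycoprotein of remodelling stroma, had 0.129, 0.189, 0.435 and 0.744 CPM when cyclic and 2.78, 1.74, 5.34 and 1.54 CPM when pregnant. These are 2, 3, 7 and 12 reads in the cyclic libraries and 28, 27, 95 and 26 in the pregnant ones. The groups did not overlap, and the fitted log2 fold change of 2.83 ± 0.48 (adjusted p = 0.00570) rests on few cyclic reads. Mare 4 showed the smallest step, its log2 ratio being 0.93 while the others had 2.56 to 3.50. The call of TNC held in 14 of 14 alternatives, but its log2 fold change ran from 2.45 without mare 3 to 3.66 without mare 4 and was 3.36 after thinning and 1.41 on the authors' scaled values with a pseudocount of 1.

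Both thrombospondins, calcium-binding glycoproteins that bind cells and proteases, had large but variable differences. THBS2 had 18.9, 8.23, 15.2 and 21.0 CPM when cyclic and 37.1, 38.4, 53.7 and 30.1 CPM when pregnant. Its groups did not overlap, yet the adjusted p was 0.0692 at a log2 fold change of 1.36 ± 0.34. THBS2 was called in 6 of 14 alternatives, with adjusted p 0.0458 without the mare block, 0.0421 with library totals, 0.00333 by DESeq2, 0.0113 by limma-voom, 7.30e-04 by the likelihood ratio test and 0.0217 without mare 4, and with 0.187 as the highest over the 14. THBS1 had 13.1, 34.0, 50.0 and 18.8 CPM against 47.4, 87.3, 59.7 and 111 CPM, higher in 4 of 4 mares with overlapping groups. Its log2 fold change was 1.48 ± 0.48 (adjusted p = 0.152), and it was called in 4 of 14 alternatives, namely DESeq2 (0.00935), limma-voom (0.0207), the likelihood ratio test (0.00925) and the fit without mare 3 (0.0214), with 0.369 as the highest over the 14.

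FN1 (fibronectin), which links integrins to the matrix, had 351, 200.1, 223 and 216 CPM when cyclic and 327, 124, 203 and 213 CPM when pregnant. It was lower in 4 of 4 mares, by little except in mare 2, and was not called (log2 fold change -0.24 ± 0.11, adjusted p = 0.188). SPARC (osteonectin), a collagen-binding glycoprotein, was at 285 ± 46.1 and 373 ± 36.2 CPM (log2 fold change 0.40 ± 0.13, adjusted p = 0.0760). DESeq2 called it (0.0247), as did the fit without mare 2 (0.0245). SPARCL1, its relative, was at 229 ± 44.5 and 243 ± 30.8 CPM (adjusted p = 0.713; 0.0489 without mare 2, with a log2 fold change of 0.29). POSTN was at 0.452 ± 0.344 and 0.429 ± 0.439 CPM and was not tested.

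All 3 of the remaining matrix proteins rose. VIT (vitrin; 100070306), a protein with von Willebrand A domains, had 39.2, 16.0, 29.2 and 16.9 CPM when cyclic and 111, 66.7, 95.4 and 50.7 CPM when pregnant. The order of the mares was nearly kept, with mares 1 and 3 high in both states, and the within-mare log2 ratios ran only from 1.50 to 2.05. Its log2 fold change was 1.71 ± 0.10 and its adjusted p, 3.92e-05, the smallest of the 37. DPT (dermatopontin; 100057735), which binds decorin and promotes collagen fibril assembly, went from 123, 192, 213 and 182 CPM to 333, 402, 395 and 333 CPM. No overlap was seen for DPT, and mare 1 made the largest step from the lowest cyclic level (log2 fold change 1.07 ± 0.10, adjusted p = 4.77e-04).

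MGP (matrix Gla protein; 100063934), a vitamin K-dependent inhibitor of calcification made by fibroblasts and by vascular smooth muscle, had 29.6, 19.9, 39.7 and 23.9 CPM when cyclic. In pregnancy it stood at 114, 139, 119.8 and 67.9 CPM. This was a 3.87-fold rise without overlap (log2 fold change 1.95 ± 0.25, adjusted p = 0.0126), largest in mare 2 with a log2 ratio of 2.80 and between 1.50 and 1.94 in the others. The call was lost without mare 1 (adjusted p = 0.0708) at a log2 fold change of 1.96.

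**Figure D2:**
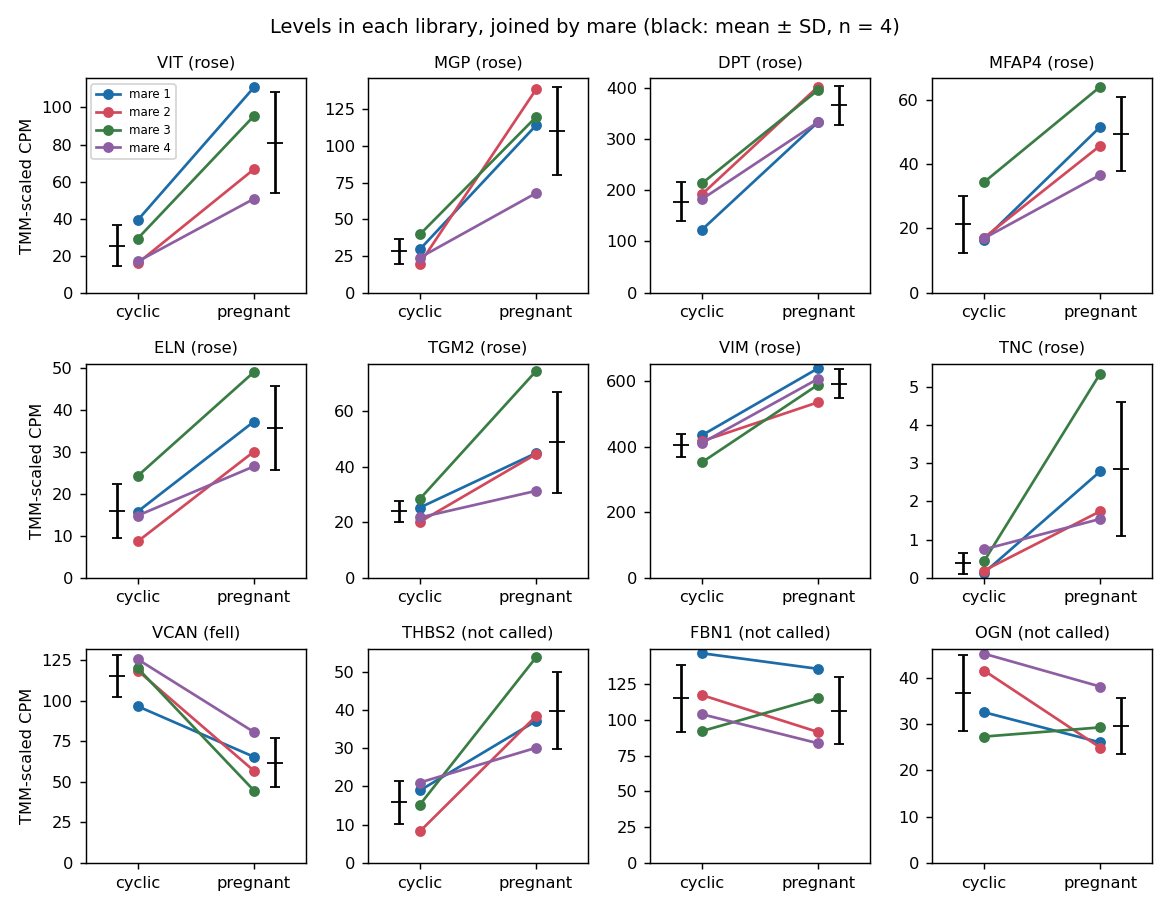
TMM-scaled CPM (vertical axis, starting at 0) of 12 genes in the cyclic and pregnant library of each mare, joined by mare, with black bars for the group mean ± SD (n = 4). VIT, MGP, DPT, MFAP4, ELN, TGM2, VIM and TNC climb in every mare and VCAN drops in every mare, while FBN1 and OGN cross.

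Fibroblast markers and receptors were called in 4 of 5 cases, all upward. VIM (vimentin; 100056088), the intermediate filament of mesenchymal cells, also found in endothelium and leukocytes, had 435, 417, 352 and 412 CPM when cyclic and 639.5, 536, 589 and 607 CPM when pregnant. The groups were far apart for their spread, with a log2 fold change of 0.56 ± 0.09 (adjusted p = 0.00294). SCARA5 (100054633), a ferritin receptor used as a marker of endometrial stroma in humans, went from 87.0, 85.2, 112 and 73.6 CPM to 149, 138, 158 and 120.2 CPM without overlap (log2 fold change 0.67 ± 0.07, adjusted p = 5.94e-04). PDGFRB (100071665), a receptor of platelet-derived growth factor on pericytes and fibroblasts, had 210.3, 137, 232 and 186 CPM against 406, 219, 379 and 254 CPM. Its groups overlapped through mare 2, which was lowest in both states, and the log2 fold change was 0.70 ± 0.09 (adjusted p = 0.00152; 0.132 without the mare block).

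THY1 (100063377), a surface glycoprotein of fibroblasts, had 46.9, 50.0, 35.0 and 37.7 CPM when cyclic and 73.4, 56.0, 38.4 and 48.9 CPM when pregnant. With overlapping groups and a log2 fold change of 0.33 ± 0.09 (adjusted p = 0.0399), it was the weakest call, lost in 7 of 14 alternatives (adjusted p up to 0.388, without the mare block). PDGFRA, the receptor that marks fibroblasts more than pericytes, had 42.1, 40.7, 56.7 and 36.7 CPM against 67.7, 41.8, 57.0 and 39.7 CPM. Only mare 1 showed a sizeable step (log2 ratio 0.69, against 0.01 to 0.11 in the others), and PDGFRA was not called (log2 fold change 0.21 ± 0.11, adjusted p = 0.259).

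Within each mare the genes behaved similarly but not alike. Mare 1 had 33 of the 37 genes higher in pregnancy, with a median log2 ratio of 0.64, mare 3 had 32 with 0.41, mare 4 had 30 with 0.39, and mare 2 had 22 with 0.26. Over all genes tested these medians lay between -0.01 and 0.01. The 15 genes lower in mare 2 comprised VCAN and 14 uncalled ones, and 7 of the 15 (LOXL1, FMOD, BGN, LOX, SPARC, SPARCL1 and MFAP5) were higher in the other 3 mares. Without mare 2, 20 genes rose and 0 fell, and 16 of the 19 calls were kept. FBLN1, HAS3 and VCAN lost their call in that fit, while SPARC, SPARCL1, FMOD and LOXL1 gained one. The genes that gave mare 2 its largest rises were MGP (2.80), TNC (2.56), THBS2 (2.20), VIT (2.05) and ELN (1.78), as log2 ratios.

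**Figure D3:**
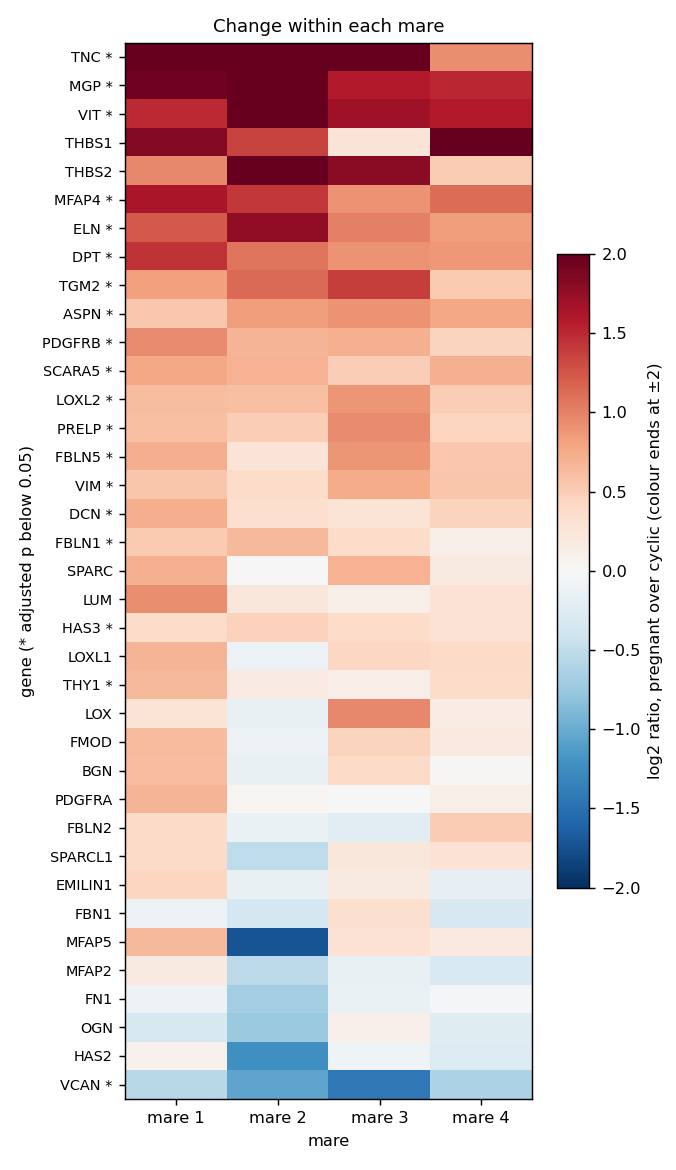
Log2 ratio of pregnant over cyclic CPM within each mare (columns) for the 37 tested genes (rows, ordered by log2 fold change; asterisks mark called genes; colour ends at ±2). The upper rows are red in all 4 mares, VCAN is blue in all 4, and mare 2 has the most blue rows, 15 of 37.

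The model also gave a joint test of its 3 mare terms, that is, of differences between the animals. Of the 37 genes, 9 differed between mares (15.9% of all genes did), 8 of which had also risen in pregnancy: VIT, MFAP4, SCARA5, ASPN, PDGFRB, ELN, PRELP and THY1. The ninth was FN1 (adjusted p = 0.0112), for which mare 1 was the highest in both states. When the sum of squares of the log2 levels of FN1 was divided, 83.0% fell between mares and 7.60% between states. At the other end, HAS3, VIM and MGP had 88.4%, 87.6% and 86.9% between the states and 9.34%, 7.29% and 7.13% between the mares. The state share (1 degree of freedom) was above the mare share (3 degrees of freedom) in 27 of 37 genes, a count not taken over all genes. The same levels gave the calls, so this count adds no support to them. Median shares were 52.2% for state and 23.7% for mare over the 37 genes, and 15.97% and 54.8% over all genes tested.

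**Figure D4:**
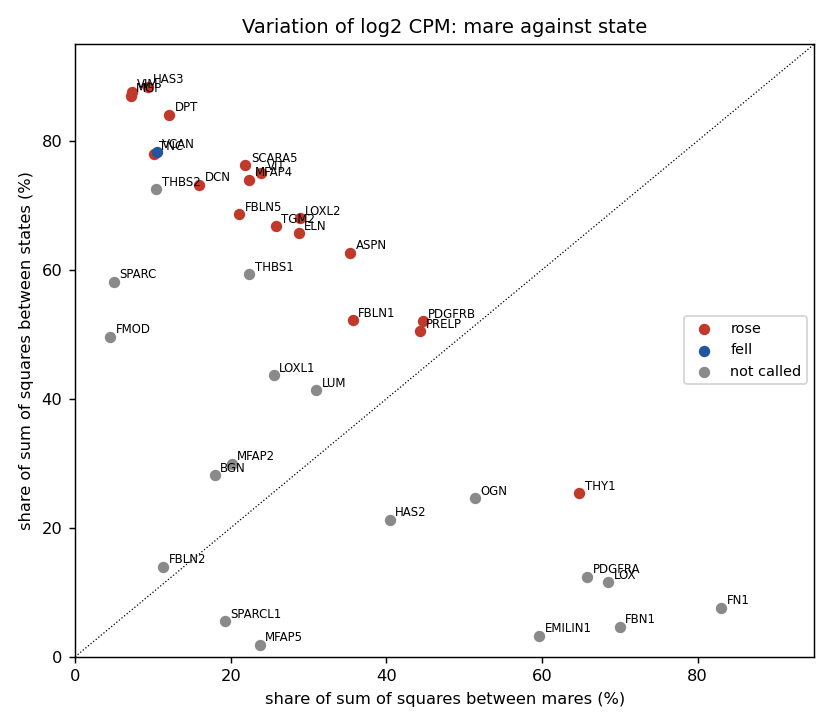
Percent of the summed squares (log2 CPM) between mares (horizontal axis, 3 degrees of freedom) and between states (vertical axis, 1 degree of freedom) for the 37 tested genes, with the dotted line marking equal shares. Called genes lie above the line except THY1, and FN1 is farthest to the right at 83.0%.

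Other genes of the same functions, listed by name with earlier results of these data known, gave the following counts. Of 19 further elastic fibre genes tested, 10 rose and 0 fell (4 and 0 with the mares unblocked). LTBP1, a latent TGF beta binding protein of microfibrils, rose from 10.7 ± 2.21 to 35.4 ± 7.66 CPM (adjusted p = 0.00158), and EFEMP1 (fibulin 3) from 75.5 ± 12.9 to 121 ± 21.9 CPM (adjusted p = 5.59e-04; 0.0537 without the mare block). The multimerins MMRN1 (2.37-fold) and MMRN2 (1.95-fold), relatives of EMILIN1 that endothelial cells make, rose as well (adjusted p = 0.00128 and 9.03e-04). Of 8 further small leucine-rich proteoglycans 1 rose and 0 fell, which is 12.5% against the 16.7% called over all genes. The median of this list was -0.09. The riser was PODNL1 (podocan-like 1; log2 fold change 0.78 ± 0.12, adjusted p = 0.00333; 0.244 without the mare block). EPYC was lower in 4 of 4 mares but not called (log2 fold change -0.86 ± 0.23, adjusted p = 0.0610). In the list 1 gene was called lower by DESeq2, limma-voom, the likelihood ratio test and after thinning, and 2 without mare 4.

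Of 11 further hyaluronan and lectican genes, 5 rose and 1 fell. Only 1 rose without mare 1, 3 without mare 2, and 3 with the mares unblocked, where 0 fell. HAPLN3, a link protein that stabilises the bond of versican with hyaluronan, rose from 2.28 ± 0.156 to 5.89 ± 1.75 CPM (adjusted p = 0.00389), and STAB2, an endothelial hyaluronan receptor, from 6.19 ± 0.485 to 10.9 ± 2.18 CPM (adjusted p = 0.00889). The hyaluronidase HYAL2 rose 1.26-fold (adjusted p = 0.0124). CEMIP2, a protein linked to hyaluronan breakdown, fell by 0.44 ± 0.07 on the log2 scale (adjusted p = 0.00426; 0.229 without the mare block). Calls of HYAL2 were lost without the mare block (0.0613) and without mare 1, as was that of STAB2 without mare 1.

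Outside the 39, 20 matricellular and adhesive genes were tested, of which 9 rose and 0 fell. Without mare 1 there were 5 risers, without mare 2 there were 6, and with the mares unblocked 2. The basement membrane linker NID1 (nidogen 1) rose 1.91-fold (adjusted p = 3.47e-04), ECM1 1.68-fold (adjusted p = 0.00202), MATN2 (matrilin 2) 1.47-fold (adjusted p = 0.00327) and CCN3, a secreted matricellular growth regulator, 2.22-fold (adjusted p = 0.00430). MATN2 and CCN3 were not called without the mare block (adjusted p = 0.377 and 0.0942). Fibroblast markers outside the 39 rose in 10 of 21 cases and fell in 2. Only 3 rose without mare 1, 5 without mare 2, and 0 rose or fell with the mares unblocked. PDPN (podoplanin), which also marks lymphatic vessels, rose 2.53-fold (adjusted p = 0.00299), and the complement component C7 rose 2.16-fold (adjusted p = 0.00444). The fallers were PI16, a marker of adventitial fibroblasts in mouse and human, from 228 ± 69.8 to 155 ± 51.3 CPM (adjusted p = 0.00190), and FAP, the fibroblast activation protein, from 156 ± 24.5 to 116 ± 27.6 CPM (adjusted p = 0.00458). All 4 lost their call without the mare block (adjusted p 0.0758 to 0.349). Of 6 tested PDGF ligands and further transglutaminases, 0 were called by edgeR, DESeq2 or limma-voom and 2 had an unadjusted p below 0.05 by edgeR (2 were called without mare 3), with PDGFB, a ligand of PDGFRB, at 27.5 ± 6.23 and 32.7 ± 5.77 CPM (adjusted p = 0.222) and PDGFD, another, at 20.5 ± 5.56 and 20.7 ± 6.24 CPM (adjusted p = 0.969).

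The collagen list held 8 chains, of which 7 matched a Gene ID, with type III not among them. Of 7 tested chains of types I, V and VI, 0 rose and 0 fell by edgeR, DESeq2 or limma-voom, 0 had an unadjusted p below 0.05 by edgeR, and their log2 fold changes ran from -0.17 to 0.25. COL1A1 was at 1484 ± 493 and 1283 ± 71.8 CPM (adjusted p = 0.658) and COL1A2 at 1558 ± 429 and 1351 ± 102 CPM (adjusted p = 0.486). Their summed level was 3328 to 5203 CPM in the cyclic and 3681 to 4306 CPM in the pregnant libraries, higher in pregnancy in mares 1 and 3 and lower in mares 2 and 4. The summed level of the 38 noncollagen and fibroblast genes was 3612 to 3800 CPM in the cyclic and 4445 to 5458 CPM in the pregnant libraries, without overlap and higher in all 4 mares. Whether the 2 lists differ in their change was not tested.

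Many markers of vessel cells were higher in pregnancy too. Whether they changed together with the stromal genes was not tested. Of 15 endothelial markers 11 rose and 0 fell, with CLDN5 at 6.11 ± 1.61 and 18.4 ± 4.94 CPM (adjusted p = 1.58e-04) and CDH5 1.83-fold higher (adjusted p = 3.71e-04), and the list summed to 1079.6 to 1784 CPM when cyclic and 1418 to 1947 CPM when pregnant. Of 13 smooth muscle and pericyte markers 7 rose and 0 fell, with MCAM 2.35-fold (adjusted p = 5.94e-04) and RGS5 1.55-fold higher (adjusted p = 0.00208). Risers numbered 5 without mare 1, 6 without mare 2 and 6 without the mare block, against 11 without mare 4 and 10 by DESeq2. The sums were 484 to 787 CPM when cyclic and 739.9 to 1145 CPM when pregnant. Of 3 lymphatic markers 1 rose, FLT4 (2.19-fold, adjusted p = 0.00242). Vessel walls also make MGP, ELN, SPARCL1, PDGFRB, THY1 and VIM. The part of vessel cells in the changes of these genes was not tested.

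Among 13 epithelial markers 0 rose and 4 fell (2 without mare 1, 2 or 4, and 0 with the mares unblocked), with KRT7 from 235 ± 62.3 to 154 ± 33.0 CPM (adjusted p = 0.00384) and PROM1 from 96.6 ± 24.9 to 76.0 ± 21.9 CPM (adjusted p = 0.0132), both lost without the mare block (0.170 and 0.528). Their summed level was 2227 to 2667 CPM when cyclic and 1971 to 2261 CPM when pregnant, lower in each of the 4 mares by 0.04 to 0.24 on the log2 scale. Of 7 ciliated cell markers 1 rose, TPPP3 (1.28-fold, adjusted p = 0.0136; lost without the mare block, 0.614, and without mare 1). Leukocyte markers rose in 3 of 14 cases, with CD14 1.47-fold higher (adjusted p = 0.00469) and the B cell gene CD79A at 0.487 ± 0.257 and 1.41 ± 0.516 CPM (adjusted p = 0.00803; 0.0996 without the mare block). Leukocyte markers summed to 194 to 274 CPM when cyclic and 239 to 278 CPM when pregnant. The share called was 14.3% of ciliated cell and 21.4% of leukocyte markers. Over all genes 16.7% were called, 8.53% higher and 8.19% lower. Of the 4 trophoblast genes listed, CDX2 and HAND1 had 0 reads in every library, which allows up to 0.18 to 0.306 CPM by library, and POU5F1 and ELF5 were tested and not called (adjusted p = 0.0918 and 0.244). The part of a changed share of epithelium in these results was not tested.

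**Figure D5:**
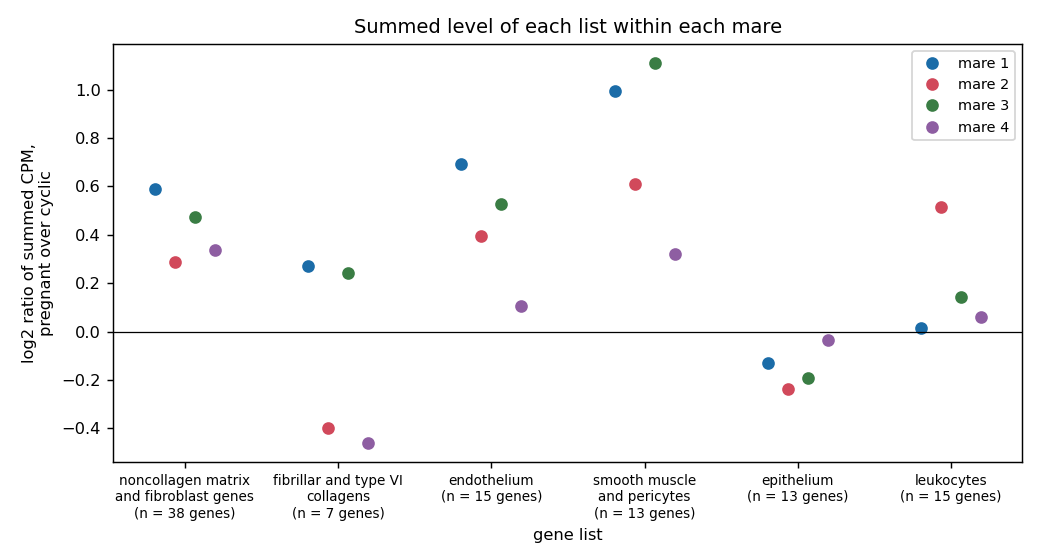
Log2 ratio of the summed CPM of each gene list, pregnant over cyclic, within each mare (coloured points). The noncollagen matrix and fibroblast genes lie above 0 in all 4 mares (0.29 to 0.59), as do endothelial, smooth muscle and leukocyte markers (leukocytes 0.01 to 0.52). Collagens lie on both sides (-0.46 to 0.27) and epithelial markers below 0.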

How the data were processed

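Raw counts of reads for 24942 NCBI Gene IDs in 8 libraries were deposited by the authors. Per the submitters' processing notes the tools included Trimmomatic 0.32.2 (trimming) and HISAT2 2.0.3 (alignment). Build, annotation and counter: not given in the sources used here, so no coordinates are printed. A second deposited file holds a scaled signal for 14037 genes, equal to TMM-scaled CPM in 100% of values (relative tolerance 1e-06), and served for an alternative only. No column of sample values was left unused (0 columns). Per the labels' protocols, libraries were made from poly(A) RNA (5 µg of total RNA, RNA integrity number 8.3 to 9.2) by a protocol that describes no marking of the strand.

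Gene names came from RefSeq's table of the horse assembly TB-T2T by Gene ID (21420 IDs, 85.9%, matched). Sequences were not used here. The analysis used edgeR 4.0.16 (R 4.3.3): filterByExpr (minimum count 10; 15342 genes, at least 99.9% of each library's counts), TMM scaling and the robust quasi-likelihood F-test of state with the mare as block, adjusted by Benjamini-Hochberg; the threshold was an adjusted p of 0.05. SE is the log2 fold change divided by the square root of F. Within-mare log2 ratios use a prior count of 2. The pairing comes from the series' design text. Libraries of the same mare deviated together from their group means (correlation over genes 0.38 to 0.54, against at most -0.02 between mares). Deviations from a group mean sum to 0, so positive values within mares push those between mares below 0. No pair of libraries from a group was as alike as sampling noise alone would make it (chi-square per degree of freedom at least 24.6). A count of 0 allows up to 3 reads, 0.18 to 0.306 CPM by library, covering counting error only.

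The genes and lists were chosen with earlier results of these data known. Genes in full are those called, those with a log2 fold change of at least 0.5 in size and those moving the same way in 4 of 4 mares; from other lists, up to 4 (cell markers 2) called genes of smallest p, or the 2 most abundant where none was called. OMD, EPCAM and EPYC fall outside this rule and were chosen after their values were seen. Alternatives were DESeq2 1.42.0 and its size factors, limma 3.58.1 (voom, and limma-trend on log2(CPM + 1)), library totals, other filters (none, or over 2 CPM in at least 2 libraries), the likelihood ratio test, thinning, no block, and leaving out each mare.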

Additional observations from a re-analysis of the deposited data

Results flagged for a closer look

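In 114 sets of 4 values (3 for each of 38 genes), 1 library or mare stood far from the other 3 in 6 cases by Dixon's test at its 95% critical value; chance alone marks about 5% of such sets. MFAP4 in cyclic mare 3 was at 34.4 CPM, with the others at 16.5 to 17.1. HAS3 in cyclic mare 4 was at 21.1 CPM, with the others at 18.5 to 18.6. HAS2 in cyclic mare 2 was at 4.71 CPM, with the others at 1.92 to 2.17. FN1 in cyclic mare 1 was at 351 CPM, with the others at 200.1 to 223. The log2 ratio of FN1 was -0.69 in mare 2 against -0.14 to -0.02 elsewhere, and that of PDGFRA was 0.69 in mare 1 against 0.01 to 0.11.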

How the results depend on the processing

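Of the 19 genes called, 5 (VIT, DPT, SCARA5, VIM and TNC) were called in all 14 alternatives. Another 9 lost their call only without the replicate block of the mare. The fit without that block lost 12 of the 19 calls and gained THBS2. It called 7 risers and 1 faller among the 37 genes, and 268 and 121 among all genes. Among the pathway genes it called 9 and 0 (35 and 3 with the block), and 0 cell markers fell (4 with it). Leaving out each mare gave 14 to 20 risers and 0 to 2 fallers among the 37 genes, 653 to 1050 and 613 to 1007 among all genes, 17 to 30 and 3 to 5 among pathway genes, and 2 to 4 fallen cell markers; library totals gave 2. In all other settings the counts of the 37 genes stayed within 16 to 20 risers and 1 faller; 8 to 13 genes differed between mares, and 6 to 11 with a mare left out. No called gene changed direction. Uncalled log2 fold changes that changed sign when a mare was left out were those of MFAP5 (-0.40 to 0.36; above 0 without mare 2), EMILIN1 (-0.044 to 0.15; below 0 without mare 1), COL1A1 (-0.32 to 0.040; above 0 without mare 4) and PDGFD (-0.097 to 0.17; below 0 without mare 1, 2 or 3). The cause was not tested. Thinning to the shallowest library lost the calls of HAS3 and THY1 (adjusted p 0.0654 and 0.0691), and POSTN was too shallow to test.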
